A study of Mus musculus with 4 samples.

Results

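The genes described here encode the pancreatic enzymes that digest fat, starch and RNA: the lipases Cel, Pnlip, Pnliprp1 and Pnliprp2, the lipase cofactor Clps, the phospholipase Pla2g1b, the amylases Amy2b and Amy2a5, and the ribonuclease Rnase1. A gene was kept if at least 1 row of the array table carried its symbol and no other, and among several such rows the one with the greatest mean level was taken. This left 7 of the 9 genes, out of 22180 genes in the table, and each of the 7 had 1 such row. Pnlip, the classical triglyceride lipase, had no row of its own symbol and is not analysed here. Amy2a5 appeared only on 8 rows that the annotation also gives to other amylase genes, so it was dropped by the rule.

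Expression was measured on Affymetrix arrays in total RNA from whole pancreas of 8-week-old mice. There were 2 wild-type and 2 Ifrd1 null samples, which the labels call biological replicates and which are each taken here as 1 mouse. All 4 mice received cerulein, an analog of cholecystokinin that over-stimulates acinar cells and causes pancreatitis, at 100 µg/kg into the peritoneum, in 6 injections per day on every other day, and tissue was taken on day 5. Ifrd1 encodes a transcriptional co-regulator, and the labels give neither strain, sex nor litter of the mice nor how the null allele was made. The study took tissue in a phase in which the injured pancreas proliferates. Untreated pancreas is not analysed here, so every comparison is between genotypes within injured tissue.

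Acinar cells make up most of the exocrine pancreas and release digestive enzymes from zymogen granules into the duct when cholecystokinin or nerve signals reach them. The proteases and the phospholipase leave the cell as inactive precursors, whereas lipases, amylase and ribonuclease are secreted in active form. Transcription of these genes is driven by acinar factors such as the PTF1 complex and NR5A2, and their messengers are known to fall when acinar cells lose their identity after injury.

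The labels could be checked in part. Ifrd1 stood at 9.04 and 9.07 in the wild-type mice and at 6.99 and 7.09 in the null mice (log2 expression level). Xist was at 2.56 and 3.54 in the wild-type mice and reached 10.2 and 9.58 in the null mice, while the Y-linked gene Uty was at 6.41 and 6.40 and at 2.25 and 2.36. Genotype and sex as read from these genes therefore cannot be told apart in these 4 arrays. Array medians over the 22180 genes lay between 4.66 and 4.70. As a check of the tissue, all 7 genes lay above these medians in every array, as did 12 of 15 genes on a list of protease zymogens, which also holds the nuclease Dnase1.

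The 250 bases before the annotated start were available for 6 of the 7 genes (RefSeq, GRCm38.p6). They are shown for the gene with the most matches to acinar factor motifs (Cel), for the genes whose Ifrd1 null arrays lay farthest apart (Pla2g1b and Amy2b) and for the gene whose null arrays lay closest (Pnliprp1). Capitals mark matches on either strand. The motifs searched were CACCTG (the E box read by PTF1), TTTCCC (read by its RBPJ or RBPJL subunit), CAAGGTC (the core read by NR5A2) and AGATAA (read by factors such as Gata4), and no match overlapped another. Each sequence runs 5′ to 3′ towards the start of its gene. The Cel window is chr2:28563404-28563653 (minus strand), the Pla2g1b window chr5:115465892-115466141 (plus), the Amy2b window chr3:113156728-113156977 (minus) and the Pnliprp1 window chr19:58728637-58728886 (plus).
Cel: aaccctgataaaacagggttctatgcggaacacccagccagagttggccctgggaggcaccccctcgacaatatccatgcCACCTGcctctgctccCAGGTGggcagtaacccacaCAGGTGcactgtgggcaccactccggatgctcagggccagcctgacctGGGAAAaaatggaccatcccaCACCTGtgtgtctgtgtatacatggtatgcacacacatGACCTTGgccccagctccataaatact
Pla2g1b: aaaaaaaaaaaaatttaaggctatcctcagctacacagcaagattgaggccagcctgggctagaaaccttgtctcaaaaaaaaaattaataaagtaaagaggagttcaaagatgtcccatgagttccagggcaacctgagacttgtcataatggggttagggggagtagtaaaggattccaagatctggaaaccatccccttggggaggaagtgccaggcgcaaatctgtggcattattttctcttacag
Amy2b: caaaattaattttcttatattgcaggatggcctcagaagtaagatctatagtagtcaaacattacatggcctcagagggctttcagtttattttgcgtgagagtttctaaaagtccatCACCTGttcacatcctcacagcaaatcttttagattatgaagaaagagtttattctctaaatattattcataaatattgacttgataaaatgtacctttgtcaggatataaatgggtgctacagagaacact
Pnliprp1: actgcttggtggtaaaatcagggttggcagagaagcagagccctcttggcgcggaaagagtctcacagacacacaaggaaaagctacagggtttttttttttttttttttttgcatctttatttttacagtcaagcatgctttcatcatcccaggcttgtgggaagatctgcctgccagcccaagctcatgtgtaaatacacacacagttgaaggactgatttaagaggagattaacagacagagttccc
The Cel window held 6 matches: CACCTG at 170, 154, 134 and 65 bases before the start, TTTCCC at 86 and CAAGGTC at 27, of which those at 154, 134, 86 and 27 lie on the opposite strand. Amy2b had 1 CACCTG at 132 bases. Of the genes not shown, Pnliprp2 had 1 CACCTG at 228 bases and Rnase1 had 1 AGATAA at 91. Pla2g1b and Pnliprp1 had none in these windows. Over all 32851 windows of the same length, CACCTG occurred in 17.2%, TTTCCC in 21.9%, CAAGGTC in 3.32% and AGATAA in 9.99%. These matches describe the sequence and were not tested as binding sites.

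No difference between genotypes larger than the spread between mice was found for these 7 genes. By limma, with Benjamini-Hochberg adjustment over all 22180 genes, 0 of 7 passed an adjusted p of 0.05, where 0.00451% of all genes did. At unadjusted p under 0.05 it was also 0 of 7, where 6.91% of all genes passed. The 1 gene called at the adjusted threshold is on the list of sex-linked genes. Ifrd1 itself (-2.02) did not pass it (limma adjusted p = 0.138), so 0 of 7 does not show the absence of a difference. The 7 differences ran from -0.055 to 0.44 (log2, Ifrd1 null minus wild type) with a median of 0.031, beside a median of -0.012 over all genes. Groups overlapped for all 7 genes, while for 35.8% of all genes they did not. Instead, the Ifrd1 null mice stood on either side of the wild-type mice: Ifrd1 null 1 was the lowest array and Ifrd1 null 2 the highest for 5 of 7 genes, an order found in 10.2% of all genes.

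**Figure D1:**
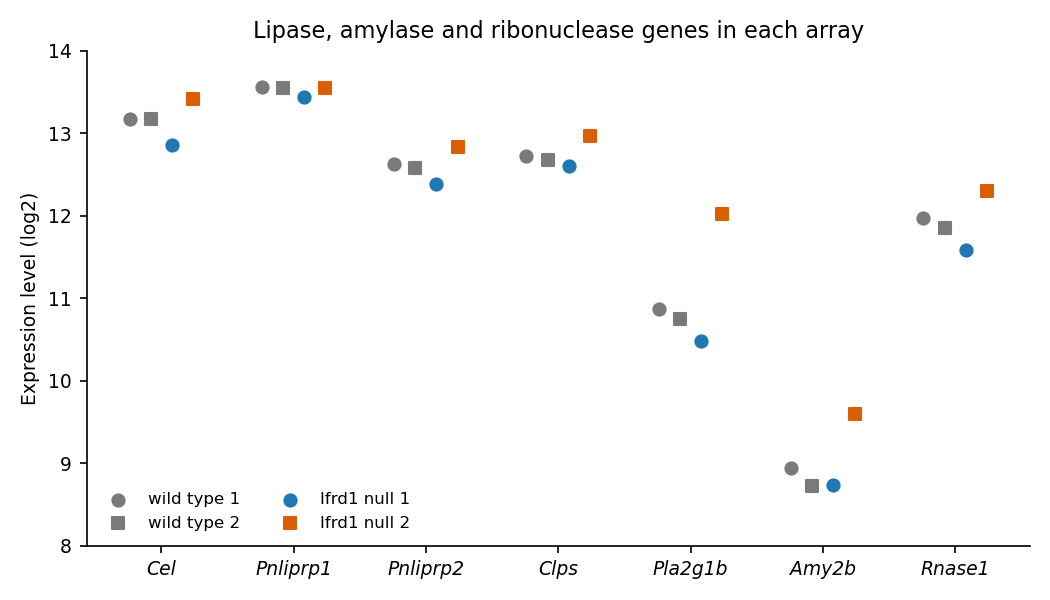
Expression level (log2, vertical axis) of the 7 genes (horizontal axis) in each array, with 1 point per mouse, grey for wild type, blue for Ifrd1 null 1 and orange for Ifrd1 null 2. The grey points of a gene lie between 0.0016 and 0.22 apart, and the orange point lies above the blue one for every gene, from 0.12 apart in Pnliprp1 to 1.54 in Pla2g1b.

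Cel encodes the bile salt-activated lipase, which splits cholesterol and vitamin esters. Its level was 13.17 in each wild-type mouse, 12.85 in Ifrd1 null 1 and 13.41 in Ifrd1 null 2 (log2). The wild-type mice were nearly identical, and the null mice lay 0.32 below and 0.24 above their mean. The difference between genotypes was -0.036 ± 0.21 (SE; limma adjusted p = 0.973), with a 95% interval from -0.61 to 0.53. Its sign turned with cyclic loess normalization (0.0086) and without Ifrd1 null 1 (0.24).

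Pnliprp2, a lipase that also acts on galactolipids and phospholipids, stood at 12.63 and 12.58 in wild type 1 and 2 and at 12.38 and 12.83 in Ifrd1 null 1 and 2. Ifrd1 null 1 was again lowest and Ifrd1 null 2 highest, at nearly equal distances from the wild-type mean. Both group means were 12.61, with an SD of 0.034 for the 2 wild-type mice and 0.32 for the 2 null mice. The interval of the difference ran from -0.49 to 0.49.

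Pnliprp1 is a close relative with little known lipase activity, and on mouse chromosome 19 it lies between Pnlip and Pnliprp2 in gene order. Its levels were 13.56 and 13.54 in wild type and 13.44 and 13.55 in Ifrd1 null 1 and 2. Ifrd1 null 1 was lowest here too, but Ifrd1 null 2 lay between the wild-type arrays. The difference was -0.055 (95% interval -0.34 to 0.23), the narrowest interval of the 7 genes. Its row was also the brightest of the 7, with a mean of 13.52 where the highest value of any row was 13.92. Pnliprp1 and Pnliprp2 differed from each other in the distance between the null arrays (0.12 against 0.45), although they are neighbours.

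Clps encodes colipase, the cofactor that holds pancreatic lipase on fat droplets coated with bile salts. It stood at 12.73 and 12.67 in wild type and at 12.60 and 12.96 in Ifrd1 null 1 and 2. Both wild-type values fell between those of the null mice. The difference was 0.082 ± 0.16 (SE), with an interval from -0.34 to 0.51.

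Pla2g1b encodes the pancreatic phospholipase A2, a precursor activated by trypsin in the gut. It had the largest spread, with 10.87 and 10.75 in wild type, 10.48 in Ifrd1 null 1 and 12.02 in Ifrd1 null 2. Ifrd1 null 2 was 1.15 above the higher wild-type array and 2.91-fold above the other null array. The wild-type mean was 10.81 ± 0.085 and the null mean 11.25 ± 1.09 (SD, n = 2 each). The difference of 0.44 ± 0.53 (SE; limma adjusted p = 0.841) had an interval from -0.98 to 1.86, the widest of the 7 genes. No match to the motifs searched was found in its window printed above.

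Amy2b encodes a pancreatic alpha-amylase, which cuts starch. It stood at 8.94 and 8.72 in wild type and at 8.74 and 9.60 in Ifrd1 null 1 and 2. Ifrd1 null 2 was highest by 0.66, while Ifrd1 null 1 lay between the wild-type arrays, just above the lower one. The difference was 0.34 ± 0.32 (SE; limma adjusted p = 0.807), with an interval from -0.51 to 1.18. Amylase genes are near-copies in a cluster on chromosome 3, and although the row carries the symbol of Amy2b alone, signal from other amylase messengers on its probes was not tested. Amy1, the amylase known from salivary gland and liver, had 6.58 and 6.78 in wild type and 6.42 and 7.13 in the null arrays, so that Ifrd1 null 1 was lowest and Ifrd1 null 2 highest. It was the 1 gene of 5 in the list of starch digestion with that order.

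Rnase1, the secreted pancreatic ribonuclease, stood at 11.97 and 11.85 in wild type and at 11.58 and 12.30 in Ifrd1 null 1 and 2. The null mice lay 0.33 below and 0.39 above the wild-type mean. The difference was 0.031 ± 0.26 (SE), with an interval from -0.68 to 0.74. Its sign turned without wild type 2 (-0.031) and without Ifrd1 null 2 (-0.33).

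**Figure D2:**
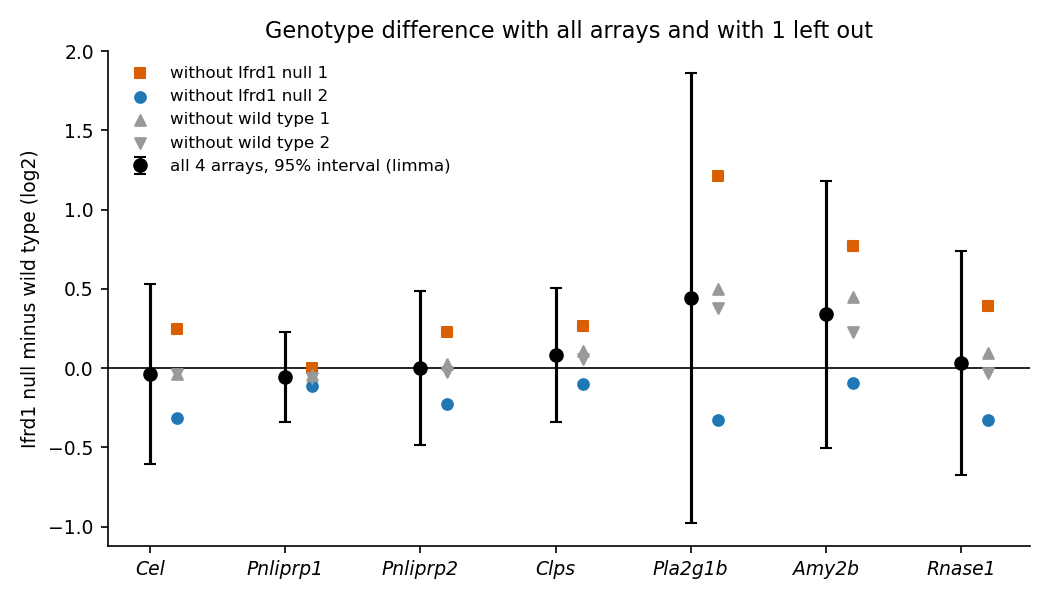
Difference between Ifrd1 null and wild type (log2, vertical axis) for the 7 genes, with limma's 95% interval over all 4 arrays in black and the difference with 1 array left out as coloured symbols. Every interval includes 0, and the squares (without Ifrd1 null 1) lie above 0 and the blue circles (without Ifrd1 null 2) below 0 for all 7 genes.

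The sign of the difference followed the null mouse that was kept. This restates that the wild-type mean lay between the null arrays for all 7 genes. Without Ifrd1 null 1, all 7 genes were higher in the remaining null array, with a median of 0.27, and 2 genes, Pla2g1b (1.21) and Amy2b (0.77), had an unadjusted p under 0.05 by limma, where 10.1% of all genes did. Without Ifrd1 null 2, all 7 were lower, with a median of -0.22, and 1 gene, Cel (-0.32), had an unadjusted p under 0.05, where 9.49% of all genes did. In both of these fits a single null mouse is assumed to vary like the wild-type pair, and no gene of the 7 passed after adjustment (lowest limma adjusted p = 0.473). Without wild type 1 the median was 0.093 and without wild type 2 it was -0.024. In both fits 0 of the 7 genes had an unadjusted p under 0.05 by limma, where 6.31% and 5.87% of all genes did.

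The distance between the null mice exceeded that between the wild-type mice for all 7 genes. Over all genes this held for 55.4%, and over the 455 genes at least as bright as Amy2b, the dimmest of the 7, for 81.3%. The median distance was 0.56 in the null pair and 0.055 in the wild-type pair. The distance in the null pair was larger than the genotype difference for all 7 genes. That follows by arithmetic, since the wild-type mean lay between the null arrays for each of them. Ifrd1 null 2 was above Ifrd1 null 1 for 7 of 7 genes, where 50.0% of all genes were and 56.9% of the bright ones. For 6 of 7 it was above by 1.2-fold or more, where 17.7% of all genes and 29.7% of the bright ones were. Pnliprp1 was the exception, and its null arrays were equal after quantile normalization (0) and in the opposite order with cyclic loess (-0.0076). The order with Ifrd1 null 1 lowest and Ifrd1 null 2 highest, seen in 5 of 7, was found in 27.0% of the bright genes. These compare 1 mouse with 1 mouse and have no replicate check. Across the 7 genes the distance was smaller where the mean level was higher (Spearman rho -0.86, n = 7 genes that share the same 4 arrays, given as a description).

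**Figure D3:**
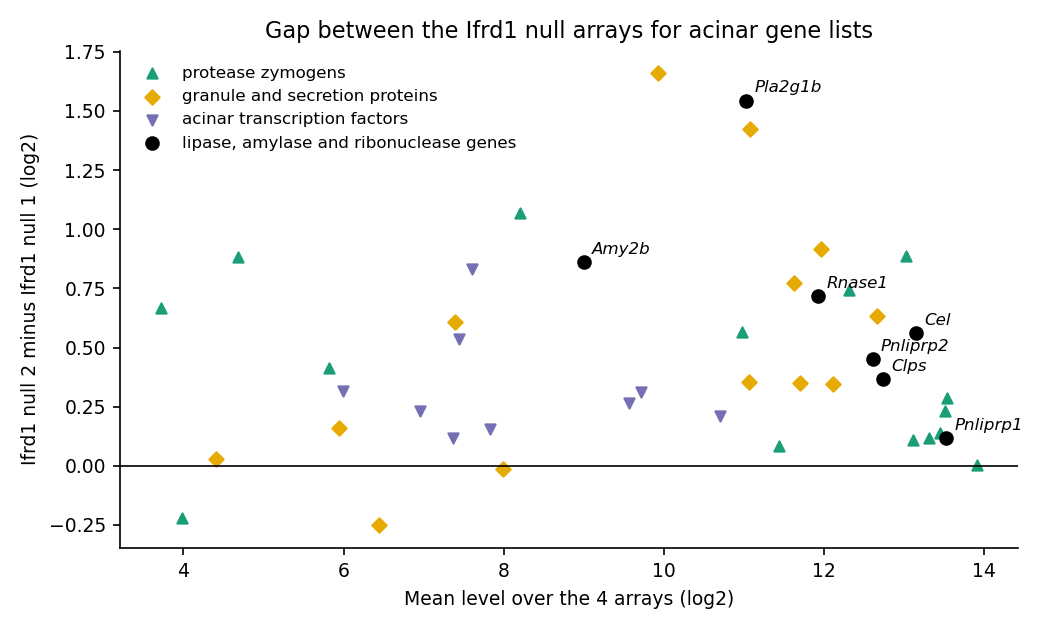
Level in Ifrd1 null 2 minus level in Ifrd1 null 1 (log2, vertical axis) against the mean level over the 4 arrays (log2, horizontal axis), for the 7 genes in black and for protease zymogens, granule proteins and acinar transcription factors in colour. Pla2g1b lies highest of the black points at 1.54, and Pnliprp1, the brightest, lowest at 0.12.

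The list of protease zymogens of the same granules also lay below the wild-type mean in Ifrd1 null 1 and above it in Ifrd1 null 2, by its medians. Against the wild-type mean, the 7 genes had medians of -0.22 in Ifrd1 null 1 and 0.27 in Ifrd1 null 2, and 15 protease zymogens had -0.10 and 0.20. Ifrd1 null 2 was above Ifrd1 null 1 for 14 of these 15, where 50.0% of all genes were and 56.9% of the bright ones. Ifrd1 null 1 was lowest and Ifrd1 null 2 highest in 9 of 15. That order was found in 10.2% of all genes and 27.0% of the bright ones. The exception to the first count was Dnase1, a nuclease and not a protease, and without it the list had medians of -0.15 and 0.21 and 14 of 14 in that direction. Set against the zymogen median of the same array, Pla2g1b lay at -0.23 (Ifrd1 null 1) and 1.01 (Ifrd1 null 2), Amy2b at 0.0078 and 0.57, and Rnase1 at -0.23 and 0.19. Cel was at -0.22 and 0.044, Pnliprp2 at -0.12 and 0.026, and Clps at -0.00010 and 0.066, so that these 3 lay close to the zymogens in Ifrd1 null 2. Pnliprp1 was 0.20 below them there (-0.20). The median of the 7 genes relative to the zymogens was -0.019 between genotypes, and its sign turned when granule proteins were added to the reference (0.030). With 2 arrays against 2, an exact permutation test cannot go below p = 0.333, so none was run.

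**Figure D4:**
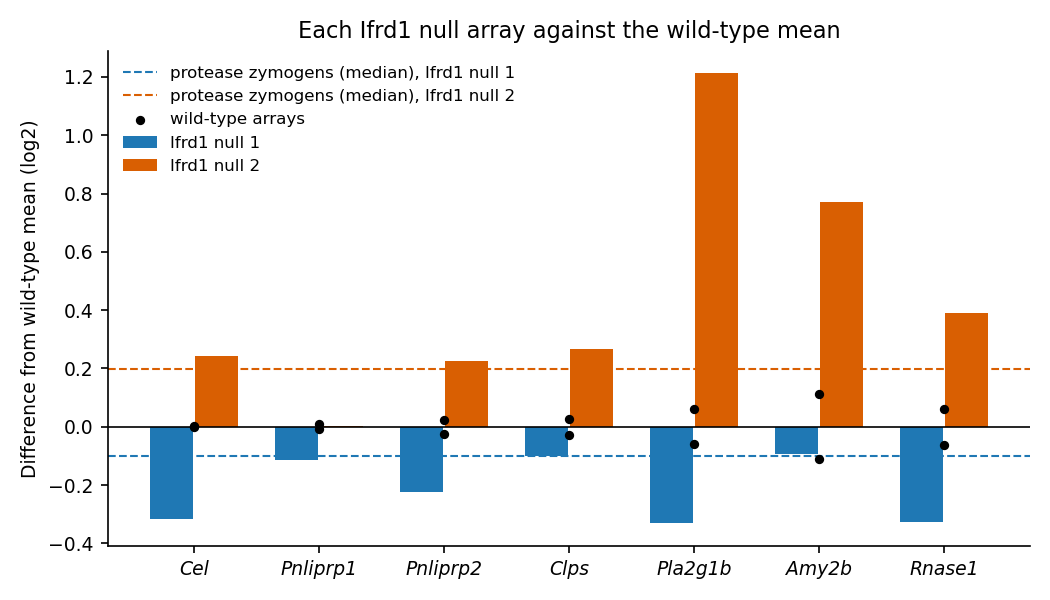
Level of each of the 7 genes in Ifrd1 null 1 (blue bars) and Ifrd1 null 2 (orange bars) minus the wild-type mean (log2, vertical axis), with the wild-type arrays as black points and the zymogen median of each null array as a dashed line. Pla2g1b (1.21) and Amy2b (0.77) stand far above the zymogen line at 0.20 in Ifrd1 null 2, and Pnliprp1 (0.0034) stands below it.

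None of 15 protease zymogens passed the adjusted threshold (0 genes by limma, and 0 at unadjusted p under 0.05). Their differences ran from -0.22 in Cela3a, an elastase, to 0.30 in Prss3, a trypsinogen that lay below the median in every array, and Cela3a lay below it in 2 arrays. Prss1 (0.19 ± 0.12, SE) and Try4 (0.14 ± 0.11) are trypsinogens with the smallest unadjusted p of that list. Of 13 granule and secretion proteins 0 passed as well, with medians of -0.25 in Ifrd1 null 1 and 0.29 in Ifrd1 null 2. Ifrd1 null 1 was lowest and Ifrd1 null 2 highest for 9 of 13, beside 10.2% of all genes and 27.0% of the bright ones. The largest difference there was 0.27 in Syt1, a calcium sensor of exocytosis whose row lay below the median in every array, and the smallest -0.19 in Stxbp2, a partner of the membrane fusion machinery.

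The acinar transcription factors had a median of -0.23 in Ifrd1 null 1, beside -0.22 for the 7 enzyme genes. In Ifrd1 null 2 their median was -0.033, beside 0.27 for the enzymes. Of 9 factors measured, 7 were lower in the null by value, and 0 passed (0 at unadjusted p under 0.05). Rbpjl, the acinar subunit of PTF1, stood at 9.87 and 9.76 in wild type and at 9.45 and 9.76 in the null (-0.21 ± 0.15, SE). Gata4 was at -0.30 ± 0.21. The 2 factors higher by value were Nr5a2 (0.057) and Bhlha15, the secretory cell factor Mist1, which had 7.62 and 7.34 in wild type, 7.31 in Ifrd1 null 1 and 8.14 in Ifrd1 null 2. All 9 factors were higher in Ifrd1 null 2 than in Ifrd1 null 1, where 50.0% of all genes were. The order with Ifrd1 null 1 lowest and Ifrd1 null 2 highest was found in 1 of 9, Bhlha15, where 10.2% of all genes had it. A difference between factors and enzymes was not tested.

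A list of 17 measured lipase and esterase genes from other tissues also holds Gpihbp1 and Lmf1, which are not lipases or esterases. The order with Ifrd1 null 1 lowest and Ifrd1 null 2 highest occurred in 4 of these 17, beside 10.2% of all genes. Of the 17, 14 were lower in the null by value, with a median of -0.16, and 0 passed the adjusted threshold. At unadjusted p under 0.05 by limma there were 1 lower and 1 higher, where 6.91% of all genes passed in either direction. The lower one was Pla1a, a phosphatidylserine phospholipase of the pancreatic lipase family, with 7.11 and 7.10 in the wild-type mice and 6.25 in each null mouse (-0.85 ± 0.10, SE; limma adjusted p = 0.721). Its groups did not overlap, as was the case for 5 of the 17 and for 35.8% of all genes. Its null values are the same number, so it is not among the genes tested when identical values are left out. The higher one was Ces1g, a liver carboxylesterase, at 0.41 ± 0.12, whose levels lay below the median in every array. Of the 17, 10 were higher in Ifrd1 null 2 than in Ifrd1 null 1. Lipases of fat tissue, named after their values were seen, went both ways. Lpl, the lipase of fat and muscle capillaries, was at 8.16 and 7.97 in Ifrd1 null 1 and 2, and Lipe, the hormone-sensitive lipase, at 4.93 and 4.52. Mgll, the monoglyceride lipase, was at 6.26 and 6.95.

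The list of secreted phospholipases A2 other than Pla2g1b also holds the receptor Pla2r1. Its genes were mostly dim, with 8 of 11 below the array median in every array. None passed (0 of 11), and 1, Pla2g2a, had an unadjusted p under 0.05 by limma (0.46 ± 0.14, SE), where 6.91% of all genes did. Pla2g2a lay below the median in every array. Pla2g3 was at 0.51 ± 0.19 and Pla2g10 at -0.30 ± 0.21. The order seen in Pla2g1b was found in 1 of 11, near the 10.2% of all genes.

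Of the other genes of starch digestion, 5 were measured and 0 passed. Mgam, the maltase-glucoamylase of the intestinal brush border, had the largest difference (-0.59 ± 0.24, SE), with 5.15 in wild type 1, 4.59 in wild type 2, and 4.45 and 4.11 in the null. Its row lay below the median in 3 arrays, all but wild type 1. Treh, which splits trehalose, was at 0.24 ± 0.11, with levels below the median in every array. The median of 12 intestinal markers against the wild-type mean was 0.18 in wild type 1, -0.18 in wild type 2, and -0.46 and -0.26 in Ifrd1 null 1 and 2. The log2 of their summed level was instead highest in Ifrd1 null 2 (10.98 and 10.69 in the wild-type mice, 10.70 and 11.01 in the null mice). Their part in the Mgam value was not tested.

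The ribonuclease A family was mostly near the bottom of the scale, with 10 of 13 genes below the median in every array. Of the 13, 12 lie with Rnase1 on chromosome 14, and 0 of 13 passed. At unadjusted p under 0.05 by limma there was 1, where 6.91% of all genes passed. That gene was Ang4, a Paneth cell angiogenin, at 0.79 ± 0.21 (SE), whose levels lay below the median in every array. Rnase10 was at -0.33 ± 0.20 and Rnase11 at 0.28 ± 0.12. Rnh1, the cytosolic inhibitor that protects cells from ribonucleases, was at 9.53 and 9.55 in wild type and at 9.38 and 9.61 in Ifrd1 null 1 and 2, with Ifrd1 null 1 lowest and Ifrd1 null 2 highest. That order was found in 2 of the 13, beside 10.2% of all genes.

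Markers of macrophages, lymphocytes, adipocytes and stellate cells ran against the enzymes between the null mice. In bulk tissue, fewer acinar cells and less enzyme RNA per cell cannot be told apart. All 10 macrophage markers were higher in Ifrd1 null 1 than in Ifrd1 null 2, where 50.0% of all genes were higher in Ifrd1 null 2. The log2 of the markers' summed level was 12.32 and 12.44 in the wild-type mice, 12.53 in Ifrd1 null 1 and 11.88 in Ifrd1 null 2. The same held for all 7 B and plasma cell markers (8.38 and 8.28 in wild type, 9.63 and 7.76 in the null), all 9 adipocyte markers (10.21 and 10.74, 11.27 and 9.58) and all 10 stellate and fibroblast markers (13.15 and 13.11, 13.33 and 12.70). T and NK cell markers had 8 of 10 in that direction (7.49 and 7.79, 8.29 and 7.76). The 7 enzyme genes ran the other way, with 15.32 and 15.27 in wild type and 15.09 and 15.56 in the null. No marker is listed at 0, since the lowest value in the table was 0.22, and no detection call was used.

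**Figure D5:**
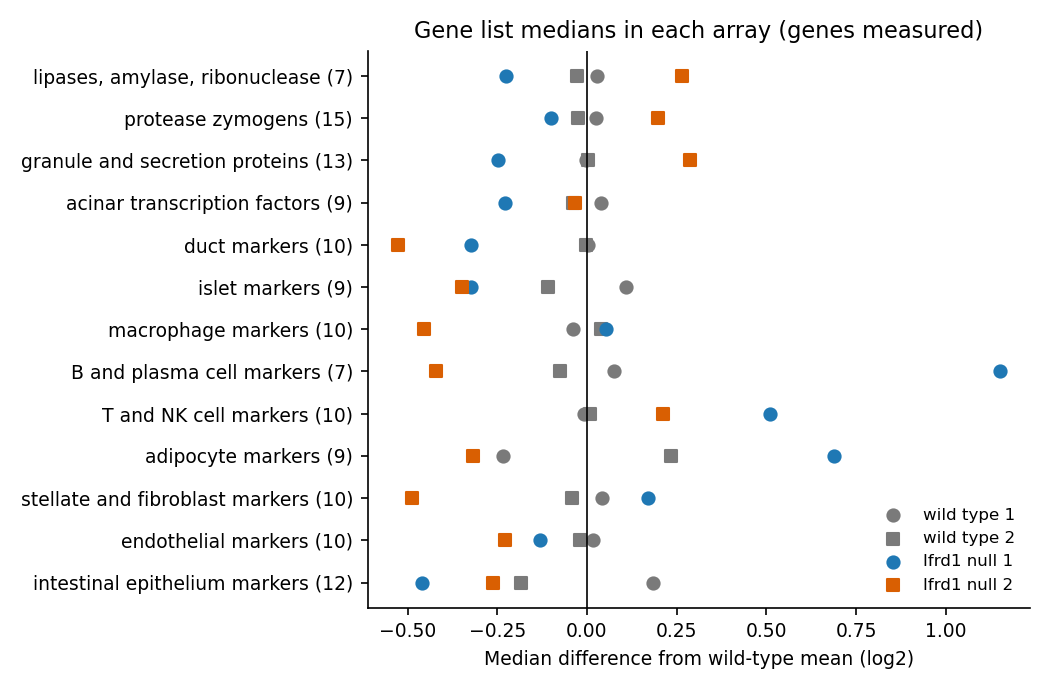
Median difference from the wild-type mean (log2, horizontal axis) of each gene list (vertical axis, genes measured in parentheses) in the 4 arrays, grey for wild type, blue for Ifrd1 null 1 and orange for Ifrd1 null 2. The orange points lie right of the blue ones for the enzyme and granule lists (0.27 against -0.22 for the 7 genes) and left of them for macrophage, B and plasma cell, adipocyte and stellate markers (-0.42 against 1.15 for B and plasma cells).

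The median of 10 duct markers was -0.32 in Ifrd1 null 1 and -0.53 in Ifrd1 null 2 against the wild-type mean (12.56 and 12.62 in the wild-type mice, 12.28 and 12.31 in the null mice as log2 summed level), and 9 of 10 were lower in the null by value. By array, Sox9 (0.48) and Muc1 (0.028) were above that mean in Ifrd1 null 2 and Krt7 (0.28) in Ifrd1 null 1, and Muc1 is also on the granule list. At unadjusted p under 0.05 by limma, 4 of 10 duct markers were lower (Krt19, Krt8, Krt18 and Cftr), where 6.91% of all genes passed in either direction. Of these, Cftr lay below the array median in 2 arrays. Islet markers had medians of -0.32 and -0.35 (9 genes, 11.82 and 11.62, 11.67 and 11.69), with members on both sides. The hormone genes Gcg (0.24) and Sst (0.27) were higher in the null by value. At unadjusted p under 0.05 by limma, 5 of 9 islet markers were lower, where 6.91% of all genes passed in either direction. Ifrd1 null 2 was above Ifrd1 null 1 for 6 of 9 islet and 8 of 12 intestinal markers, where 50.0% of all genes were. The order with Ifrd1 null 1 lowest and Ifrd1 null 2 highest was found in 1 of 9 and 0 of 12, beside 10.2% of all genes. Endothelial markers were at -0.13 and -0.23 (10 genes; 9.60 and 9.52, 9.31 and 9.29). The part of any of these cell types in the enzyme values was not tested.

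By the distance between 4-array profiles, each centred on its own mean, the 5 genes nearest to the median profile of the 7 were Tcstv1, Olfr1408, Uchl5, 4933431E20Rik and Kcnk1, with root mean square distances from 0.017 to 0.021 (log2). Uchl5, a deubiquitinase of the proteasome, stood at 8.09 and 8.05 in wild type and at 7.84 and 8.37 in Ifrd1 null 1 and 2. Kcnk1, a potassium channel, stood at 8.60, 8.49, 8.27 and 8.82 in the same order. Tcstv1 and Olfr1408 lay below the median in every array. Each of the 5 was nearer to that profile than any of the 7 enzyme genes themselves, whose distances ran from 0.034 for Pnliprp2 to 0.42 for Pla2g1b. Since the 5 were picked as the nearest of all other genes, that order was nearly fixed by the selection. Shared regulation was not tested.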

How the data were processed

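Values per array and transcript cluster were deposited by the authors and were treated as log2 expression levels. The log base, background correction, probe summary and normalization are not given in the sources used here, and the scale was inferred from values between 0.22 and 13.92. Of 41345 rows, 23521 had 1 gene symbol, 1814 several and 16010 none in the platform annotation. The rule for rows gave 22180 genes. No filter or detection call was applied, so low levels may not exceed background. Groups were compared with limma 3.58.1 in R 4.3.3 (lmFit, eBayes, two-sided, no covariate) with Benjamini-Hochberg adjustment over all genes, after a test on simulated data. SE and intervals are limma's, and SD is given for group means. The labels call the mice biological replicates, and the small number of arrays limits precision. The genes, gene lists and motifs were chosen with earlier results of these data known. Named genes are the 7 enzyme genes, sample checks, the 5 nearest profiles and members of each non-marker list. Those members had the lowest and highest difference and the smallest p-values of their list. Amy1, Rnh1, Nr5a2, Dnase1, Lpl, Lipe, Mgll, Gpihbp1, Lmf1, Pla2r1 and single markers were named outside that rule, after their values were seen. Of 205 list symbols 182 were measured, 1 through a synonym. Alternatives covered normalization, variance model, replicate block, dim genes, rows per gene, identical values, each array left out and the reference list. The brightness split and the distance between null arrays under other scalings, and the zymogen list without Dnase1, were added after seeing the data.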

Additional observations from a re-analysis of the deposited data

How the results depend on the processing

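No enzyme gene passed under any of the 12 alternatives (0 of 84 values, lowest limma adjusted p = 0.473). With so few calls over all genes, this says little about stability. Over all genes, calls numbered 1 in the main setting, 5 with median centring, with a robust trended eBayes and after dropping genes with identical values, 4 with cyclic loess and with the replicate block, 0 among genes above the median level and 0 with any 1 array left out. Same-numbered deviations had a correlation of -0.035 across genes. With 1 difference per genotype, this cannot show whether the replicate numbers pair the mice. The block changed no call of the 7 genes. Signs turned in 11 of 84 values: with all arrays, Pnliprp2 with median centring (-0.015) and Cel with cyclic loess (0.0086), and the other 9 with an array left out. With 1 array left out, Cel ran from -0.32 to 0.24, Pnliprp1 from -0.11 to 0.0034, Pnliprp2 from -0.22 to 0.23, Clps from -0.10 to 0.27, Pla2g1b from -0.33 to 1.21, Amy2b from -0.092 to 0.77 and Rnase1 from -0.33 to 0.39, and their median from -0.22 to 0.27. That median was 0.097 with cyclic loess. Relative to zymogens with granule proteins it was 0.030, and to zymogens in the same brightness range -0.031. The median distance between the null arrays, 0.56, was 0.39 with quantile normalization and 0.44 with cyclic loess. The cause of these shifts was not tested. Whether signal near the top of the scale limits what the brightest rows can show was not tested.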
